A study of Mus musculus with 9 samples.

Results

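The mitochondrial ribosomal protein genes are the nuclear genes named Mrps (small subunit) or Mrpl (large subunit) with a number. They were taken from the deposited table by symbol alone, without use of any measured value, and names that mark pseudogenes were left out. The rule found 78 of the 13116 genes of the table, 29 of the small subunit and 49 of the large subunit, and left out 2 pseudogene names. All 78 protein-coding symbols of this form in the GENCODE annotation of GRCm38 were in the table, and all 78 passed the filter on low values.

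RNA was measured in quadriceps muscle of male mice aged 18 months, in 9 libraries of 3 per group. WT PBS were wild-type mice given PBS, KO PBS were GAA KO mice given PBS, and KO secGAA were GAA KO mice treated with AAV8-sp7-delta8-hGAAco, a vector. GAA is acid alpha-glucosidase, the lysosomal enzyme that degrades glycogen and whose loss causes Pompe disease, and the vector provides for expression of a secretable form of the enzyme. PBS or vector went into the tail vein when the mice were 9 months old, which left 9 months before the muscle was collected. The labels name no strain, knockout allele or vector promoter. The labels do not state that the libraries of a group came from separate animals, so p-values measure the spread between these samples, which may be technical.

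The mitochondrial ribosome is the machine that translates the 13 messenger RNAs of mitochondrial DNA, all of which code for subunits of oxidative phosphorylation. Its RNAs are made inside the organelle, while its proteins are encoded in the nucleus, made in the cytosol and imported. Some of these proteins belong to families shared with bacterial ribosomes, and others were added during the evolution of mitochondria. Muscle is rich in mitochondria, and inherited defects of several of these proteins cause disorders that affect muscle, heart or brain.

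In KO PBS muscle 15 of the 78 genes (19.2%) fell against WT PBS and none rose, with the scaling of the deposited table, where 11.0% of all genes tested fell and 10.9% rose. Mrpl34 and Mrpl16 had the lowest log2 fold changes of the 78 (-0.81 and -0.71). Both subunits shared in this, with 8 genes of the small and 7 of the large subunit among the 15. As a mean over genes, the level of small relative to large subunit genes differed between KO PBS and WT PBS by less than the spread between libraries. With medians over genes the difference was larger and of the opposite sign, as given in the closing section, so the answer depended on the summary used. In KO secGAA muscle none of the 78 passed the test against KO PBS (3.67% of all genes did), and 2 (Mrps34 and Mrpl36) fell against WT PBS, a share near the 1.89% of all genes that fell. The direction of the family as a whole depended on how libraries were scaled, as given below, whereas Mrpl34 and Mrpl16 were lower and passed in KO PBS under each of the 19 alternative settings tried.

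Values are normalized reads (CPM), as deposited, after scaling factors that differ between libraries. A library held 9299156 to 15957106 reads in the genes of the table, and a member held 84 to 3123 reads in a library. The scaling factors recovered from the table were 0.873 to 0.914 in WT PBS, 1.07 to 1.17 in KO PBS and 0.963 to 1.03 in KO secGAA, so a gene with an equal share of reads is shown lower in KO PBS than in WT PBS. The knocked-out gene, Gaa, was at 129, 264 and 296 in the WT PBS libraries and at 14.0 to 17.8 in the 6 KO libraries below every WT PBS library. Reads of mouse Gaa do not measure the human transgene. Marker genes of other cell types and fibre types also moved with the deposited scaling. Of all genes, 10.9% rose and 11.0% fell in KO PBS against WT PBS. Slow-fibre markers summed to 50.5 to 491 in WT PBS, 544 to 2302 in KO PBS and 279 to 959 in KO secGAA (6 of 8 higher in KO PBS against WT PBS). Fast-fibre markers, at 166900 to 210800, 125600 to 137100 and 157100 to 178900, had 6 of 10 lower. Macrophage markers, at 142 to 225, 352 to 559 and 219 to 445, had 4 of 12 higher, and endothelial markers, at 162 to 201, 109 to 152 and 162 to 192, had 3 of 8 lower. Markers of all fibres, at 84470 to 88960, 59400 to 72100 and 67340 to 72020, had 4 of 8 lower and 1 higher. None of 5 adipocyte markers passed (median log2 fold change -1.02, summed level 234 to 684, 156 to 312 and 278 to 682), nor of 5 Schwann cell markers, and 1 of 7 fibroblast and 1 of 5 satellite cell markers rose. Without scaling factors the fast-fibre list had 1 lower, the endothelial and all-fibre lists 0 lower, and the macrophage list 10 higher. In that setting 3.96% of all genes were lower and 34.1% higher. No marker of these lists was at 0 reads in any library, and their part in the results below was not tested. In bulk muscle, fewer cells of a type and less RNA per cell cannot be told apart.

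The start regions of 5 genes are shown because they span the range of the response and the motifs found in the family. Each runs from 250 bases before to 50 bases after the RefSeq start, 5′ to 3′ on the strand of the gene, in build GRCm38.p6, and capitals mark matches to 1 of 3 motif cores. The cores searched, on both strands, were CTTCCGG for the ETS family (which includes Gabpa), TGCGCA for Nrf1 and AAGATGGC for Yy1; these factors are known to act at promoters of nuclear genes for mitochondrial proteins. Mrpl34 (chr8:71464676-71464975, plus strand) had the largest fall and Mrpl16 (chr19:11770165-11770464, plus strand) the next. Mrps27 (chr13:99344536-99344835, plus strand) and Mrps7 (chr11:115603890-115604189, plus strand) fell and hold matches to 2 cores each. Mrpl40 (chr16:18876588-18876887, minus strand) had the highest log2 fold change of the family, did not pass the test, and was chosen for display after its values were seen.
Mrpl34: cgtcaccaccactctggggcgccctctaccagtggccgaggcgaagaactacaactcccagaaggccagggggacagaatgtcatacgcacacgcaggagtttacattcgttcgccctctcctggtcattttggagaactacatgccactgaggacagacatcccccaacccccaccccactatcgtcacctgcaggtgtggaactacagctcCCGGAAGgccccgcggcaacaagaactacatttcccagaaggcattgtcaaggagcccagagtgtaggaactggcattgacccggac
Mrpl16: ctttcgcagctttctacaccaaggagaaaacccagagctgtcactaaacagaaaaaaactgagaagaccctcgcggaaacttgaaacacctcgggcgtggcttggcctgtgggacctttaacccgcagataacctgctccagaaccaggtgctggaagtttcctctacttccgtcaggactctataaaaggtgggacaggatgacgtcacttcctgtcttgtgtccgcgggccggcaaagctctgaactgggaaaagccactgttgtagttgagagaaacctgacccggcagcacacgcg
Mrps27: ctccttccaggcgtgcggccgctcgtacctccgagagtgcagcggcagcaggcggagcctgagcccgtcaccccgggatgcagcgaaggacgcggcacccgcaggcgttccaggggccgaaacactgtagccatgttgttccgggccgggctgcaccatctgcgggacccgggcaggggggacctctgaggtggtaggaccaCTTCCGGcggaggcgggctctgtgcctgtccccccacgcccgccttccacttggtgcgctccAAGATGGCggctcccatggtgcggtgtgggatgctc
Mrps7: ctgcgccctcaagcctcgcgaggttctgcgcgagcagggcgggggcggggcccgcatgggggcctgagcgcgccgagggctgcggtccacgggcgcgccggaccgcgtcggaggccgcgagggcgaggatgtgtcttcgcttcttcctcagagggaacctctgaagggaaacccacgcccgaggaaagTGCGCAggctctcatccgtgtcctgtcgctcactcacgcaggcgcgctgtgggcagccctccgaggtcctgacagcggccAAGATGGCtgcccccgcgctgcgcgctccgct
Mrpl40: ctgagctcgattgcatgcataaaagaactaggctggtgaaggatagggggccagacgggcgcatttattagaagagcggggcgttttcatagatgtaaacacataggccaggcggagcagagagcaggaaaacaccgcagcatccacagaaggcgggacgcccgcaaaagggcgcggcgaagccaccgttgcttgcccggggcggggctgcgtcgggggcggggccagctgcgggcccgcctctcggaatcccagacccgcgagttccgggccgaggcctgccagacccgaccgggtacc
Mrpl34 held an ETS core 37 bases before the start, Mrps27 an ETS core 48 bases before and a Yy1 core at base 14 after it, and Mrps7 an Nrf1 core 62 bases before and a Yy1 core at base 18 after it. Mrpl16 and Mrpl40 held none of the 3 cores in this window.

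The RefSeq table held a start region for 69 of the 78 genes. The ETS core was found in 26 of the 69 (37.7%), against 9.93% of the 27025 genes of the RefSeq table. Those genes were not limited to genes expressed in muscle, and no share among expressed genes was taken. The Nrf1 core was found in 21 (30.4%, against 8.79%) and the Yy1 core in 12 (17.4%, against 3.19%). Among the 13 genes with a start region that fell in KO PBS, 3 held the ETS core, 3 the Nrf1 core and 5 the Yy1 core; among the other 56 the numbers were 23, 18 and 7. A match describes these letters in this window and is no evidence of binding. The genes for these factors, of which Gabpa and Nrf1 are given because of the motifs, did not pass the test in KO PBS against WT PBS: the log2 fold change was -0.19 for Gabpa, -0.17 for Nrf1 and -0.16 for Yy1 (limma adjusted p = 0.349, 0.401 and 0.32).

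Within the family, levels per kilobase of transcript spanned 80.2-fold, from 3.23 for Mrpl19 to 259 for Mrpl42, with a median of 34.8 deposited units per kilobase over the 9 libraries. These levels use the median length of the annotated coding transcripts of each gene, so they depend on which transcript muscle uses. The highest of the large subunit were Mrpl42, Mrpl33 (175) and Mrpl30 (139), and the highest of the small subunit by symbol were Mrps21 (231), Mrps36 (97.6) and Mrps18a (74.95). The lowest of the large subunit were Mrpl19, Mrpl47 (6.64) and Mrpl32 (7.74), and the lowest of the small subunit were Mrps35 (5.50), Mrps25 (6.99) and Mrps26 (8.24). The medians of the subunits were close, at 37.2 for the small and 34.7 for the large subunit. The symbols of 3 genes mislead: Mrps18a and Mrps30 sit in the large subunit, and Mrps36 is a component of the 2-oxoglutarate dehydrogenase complex and no ribosomal protein. Of the 78 genes, 33 share annotated exon bases with another gene, and since no label says whether counting used strand, reads of such pairs cannot be told apart.

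**Figure D1:**
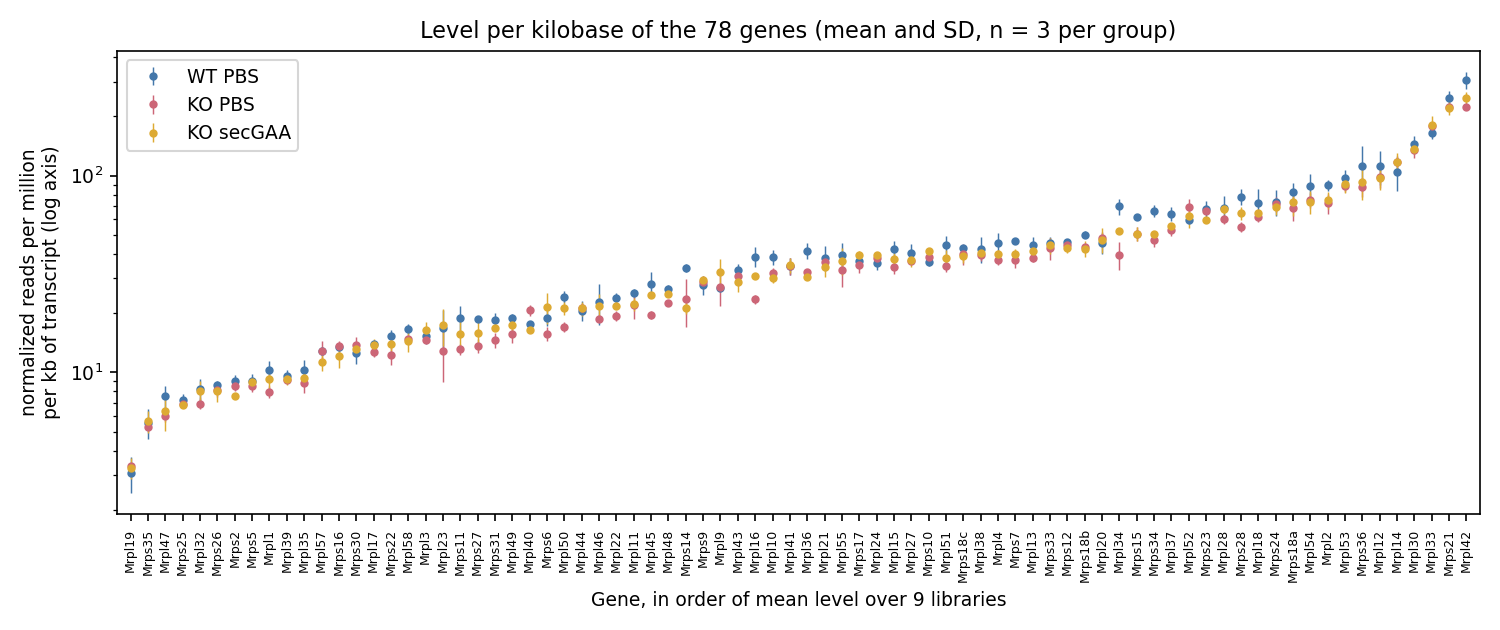
Level per kilobase of transcript (normalized CPM per kb, log axis) of the 78 genes in order of their mean, with 1 point per group (mean of 3 libraries, bars SD). The order runs from Mrpl19 at 3.23 to Mrpl42 at 259, with group means for Mrpl42 of 305.5 in WT PBS, 224.0 in KO PBS and 248.7 in KO secGAA.

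The first comparison, KO PBS against WT PBS, asks how the knockout differs from wild type. Of the 78 genes 15 fell (19.2%) and 0 rose, at a limma adjusted p under 0.05 over all 13089 genes tested. Over all of those genes 11.0% fell and 10.9% rose (21.9% in either direction). The log2 fold change was negative for 65 of the 78 genes and its median was -0.19, against 0.01 for all genes tested. All 3 KO PBS libraries lay below all 3 WT PBS libraries for 30 of the 78 genes, against 19.0% of all genes, and above them for 3 (Mrpl24, Mrpl40 and Mrpl52), against 20.7%.

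**Figure D2:**
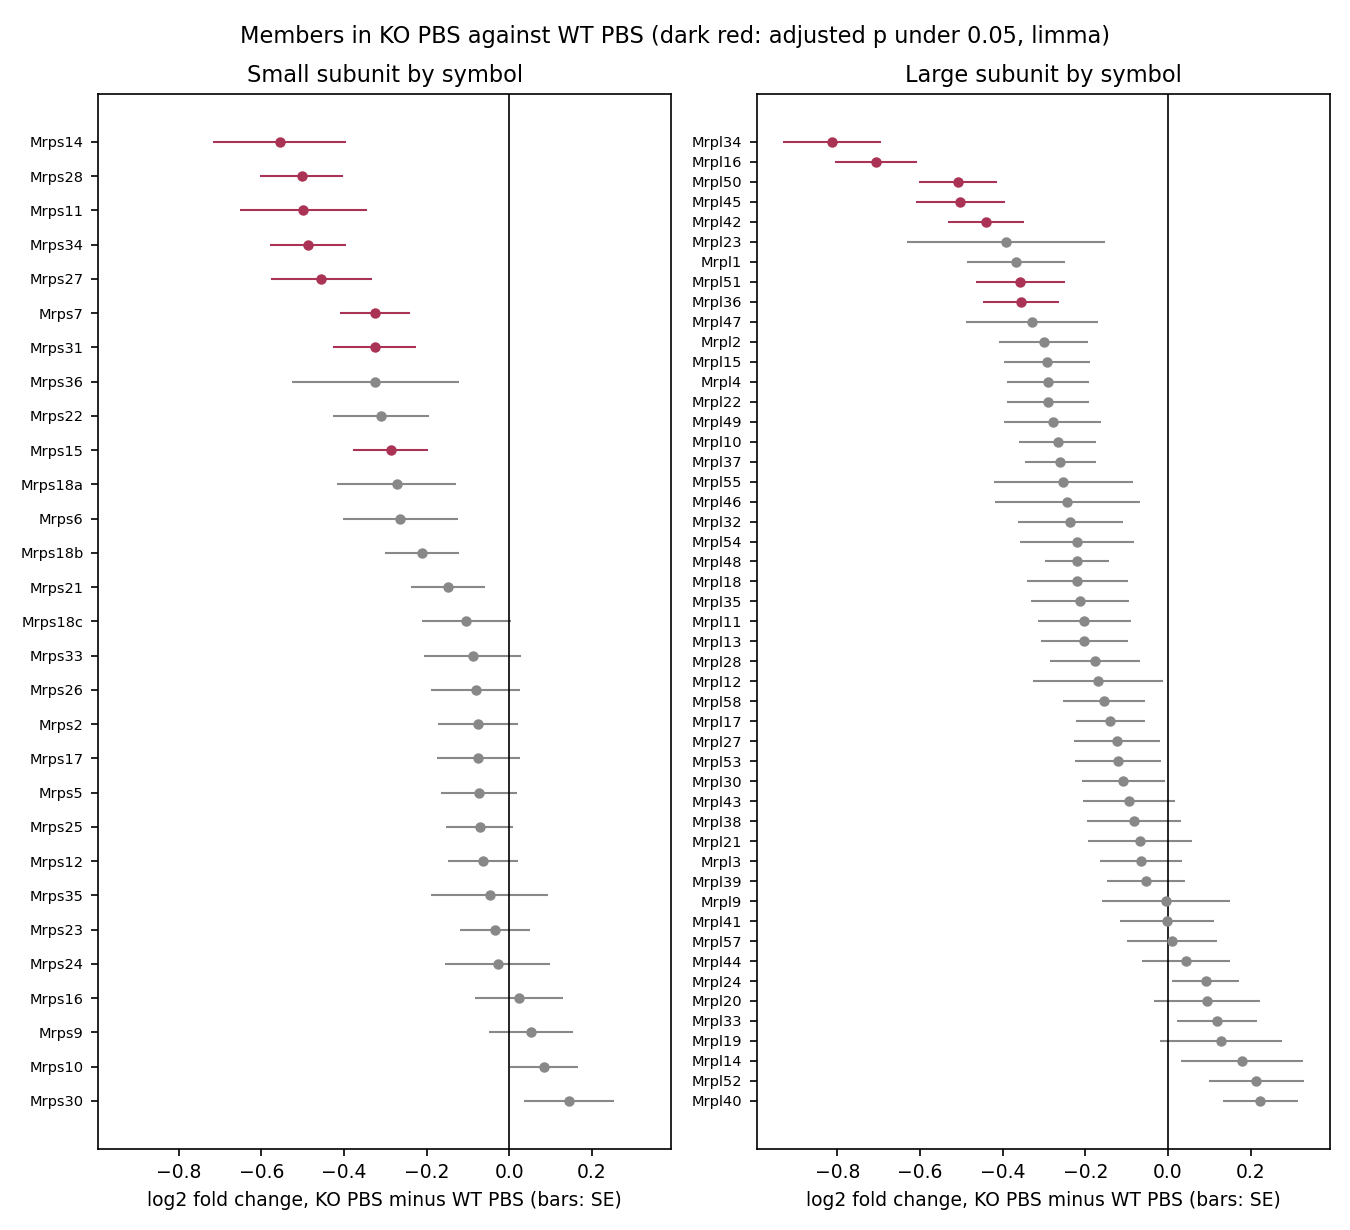
Log2 fold change in KO PBS against WT PBS (points, bars SE from limma) of each gene of the small and large subunit by symbol, in order of size, with genes at a limma adjusted p under 0.05 in dark red. The 15 that passed all lie below 0, from -0.81 for Mrpl34 to -0.29 for Mrps15, and the highest value is 0.22 for Mrpl40.

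Among genes of the large subunit, Mrpl34 (bL34m, chr8:71464959-71465747) codes for a small protein of a family shared with bacteria. Its values were 38.4, 46.1 and 42.5 in WT PBS, 21.8, 28.4 and 21.8 in KO PBS and 30.6, 32.6 and 31.5 in KO secGAA. The 3 groups did not overlap, with KO PBS lowest and KO secGAA in between. Mrpl34 fell in KO PBS against WT PBS by 0.81 on the log2 scale (SE 0.12, n = 3 per group, limma adjusted p = 0.00141), from 42.3 ± 3.85 to 24.0 ± 3.82 (SD).

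Mrpl16 (uL16m, chr19:11770391-11774960) codes for a core protein near the tRNA sites of the large subunit. Its values were 39.2, 48.0 and 48.0 in WT PBS, 28.2, 25.7 and 28.1 in KO PBS and 35.1, 36.7 and 35.9 in KO secGAA, again with no overlap between any of the groups. It fell in KO PBS against WT PBS by 0.71 (SE 0.10, limma adjusted p = 0.00111), from 45.1 ± 5.10 to 27.3 ± 1.38 (SD, n = 3). Relative to the mean of the family in the same library, which scaling of libraries affects only through the pseudocount, the log2 difference of KO PBS from WT PBS was -0.63 for Mrpl34 and -0.52 for Mrpl16.

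Mrpl50, Mrpl45, Mrpl42 and Mrpl51 are additions of the mitochondrial ribosome with no bacterial counterpart. Mrpl45 (chr11:97315716-97329920) lies at the exit of the nascent chain, where the ribosome meets the inner membrane. It was at 57.1, 76.2 and 71.7 in WT PBS, 49.2, 45.1 and 48.96 in KO PBS and 58.8, 60.5 and 60.7 in KO secGAA, and fell in KO PBS against WT PBS by 0.50 (SE 0.11, limma adjusted p = 0.00925). Mrpl50 (chr4:49512596-49521093) was at 46.9, 53.2 and 53.6 in WT PBS, 38.2, 34.0 and 35.4 in KO PBS and 41.0, 47.4 and 46.3 in KO secGAA, and fell by 0.51 (SE 0.09, limma adjusted p = 0.00462). Mrpl42 (chr10:95480805-95501940), the highest of the family per kilobase, was at 179, 220 and 207 in WT PBS, 146, 149 and 149 in KO PBS and 152, 169 and 173 in KO secGAA. Its KO PBS libraries were nearly equal, and KO secGAA lay between the other groups with no overlap. The difference of KO PBS from WT PBS was a fall of 0.44 (SE 0.09, limma adjusted p = 0.00825). Mrpl51 fell by 0.36 (SE 0.11, limma adjusted p = 0.0413), and leaving out any 1 of WT PBS 2, WT PBS 3 or the 3 KO PBS libraries, or KO secGAA 2, ended that call (0.0238 to 0.134 over the 9 omissions).

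Mrpl36 (bL36m, chr13:73328513-73332178) codes for one of the smallest proteins of the large subunit, from a family shared with bacteria. It was at 26.8, 31.7 and 30.9 in WT PBS, 23.5, 23.1 and 22.9 in KO PBS and 21.5, 22.9 and 21.4 in KO secGAA. Both KO groups lay below all WT PBS libraries. Mrpl36 fell in KO PBS against WT PBS by 0.35 (SE 0.09, limma adjusted p = 0.0225) and in KO secGAA against WT PBS by 0.43 (limma adjusted p = 0.0346), 2 comparisons that share the WT PBS libraries. The first call was lost without WT PBS 2, WT PBS 3, KO PBS 2 or KO PBS 3 (adjusted p 0.013 to 0.0858 over the 9 omissions), and the gene shares 30 exon bases with Ndufs6 on the other strand.

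Among genes of the small subunit, Mrps28 (bS1m, chr3:8802146-8923918) was at 54.7, 63.1 and 66.1 in WT PBS, 44.1, 40.1 and 44.9 in KO PBS and 46.4, 51.1 and 53.9 in KO secGAA. The 3 groups did not overlap. Mrps28 fell in KO PBS against WT PBS by 0.50 (SE 0.10, limma adjusted p = 0.00635), from 61.3 ± 5.94 to 43.0 ± 2.59 (SD, n = 3). Mrps34 (mS34, chr17:24895116-24897502), a mitochondrial addition known to be needed for a stable small subunit, was at 56.4, 65.2 and 60.9 in WT PBS, 46.7, 43.5 and 39.5 in KO PBS and 45.9, 44.4 and 48.1 in KO secGAA. Both KO groups lay below WT PBS and overlapped each other. It fell by 0.49 in KO PBS (SE 0.09, limma adjusted p = 0.00493) and by 0.39 in KO secGAA (limma adjusted p = 0.0469), each against WT PBS, but it shares 1309 of its 2064 exon bases with Mapk8ip3 on the other strand and 763 with Nme3 on its own.

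Mrps14 (uS14m), a protein of the head of the small subunit from a bacterial family, was at 60.4, 66.0 and 65.9 in WT PBS, 58.1, 34.9 and 40.3 in KO PBS and 43.0, 40.3 and 37.5 in KO secGAA. KO PBS 1 lay close to WT PBS and apart from the other KO PBS libraries, while the 3 KO secGAA libraries were all low. The log2 fold change was -0.56 in KO PBS (SE 0.16, limma adjusted p = 0.0335) and -0.66 in KO secGAA against WT PBS (limma adjusted p = 0.0514, which did not pass). Leaving out KO PBS 1 gave a larger contrast for KO PBS (the lowest adjusted p over the 9 omissions was 0.0022), and leaving out any WT PBS library, KO PBS 2 or KO PBS 3 ended the call (highest 0.11).

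The other small subunit genes that fell in KO PBS were Mrps11 and Mrps15 of bacterial families, Mrps7 (uS7m, of the head of the subunit), and the mitochondrial additions Mrps27, an RNA-binding pentatricopeptide repeat protein, and Mrps31. Their log2 fold changes were -0.50, -0.29, -0.33, -0.46 and -0.33 (limma adjusted p = 0.0429, 0.0466, 0.0223, 0.0259 and 0.0438). In all 5 the KO PBS libraries lay below the WT PBS libraries. Each of these calls was lost without WT PBS 2, WT PBS 3, KO PBS 2 or KO PBS 3. That for Mrps11 was also lost without KO PBS 1 or KO secGAA 3, and that for Mrps15 without WT PBS 1 or KO secGAA 2. The call for Mrps31 was also lost without KO PBS 1 or any KO secGAA library. With the 2 groups compared only, Mrps15 and Mrps31 did not pass, and in edgeR Mrps15 did not. Of the 15 genes that fell, 6 (Mrpl36, Mrpl51, Mrps7, Mrps11, Mrps27 and Mrps34) share exon bases with another gene, and their reads are uncertain to that extent.

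**Figure D3:**
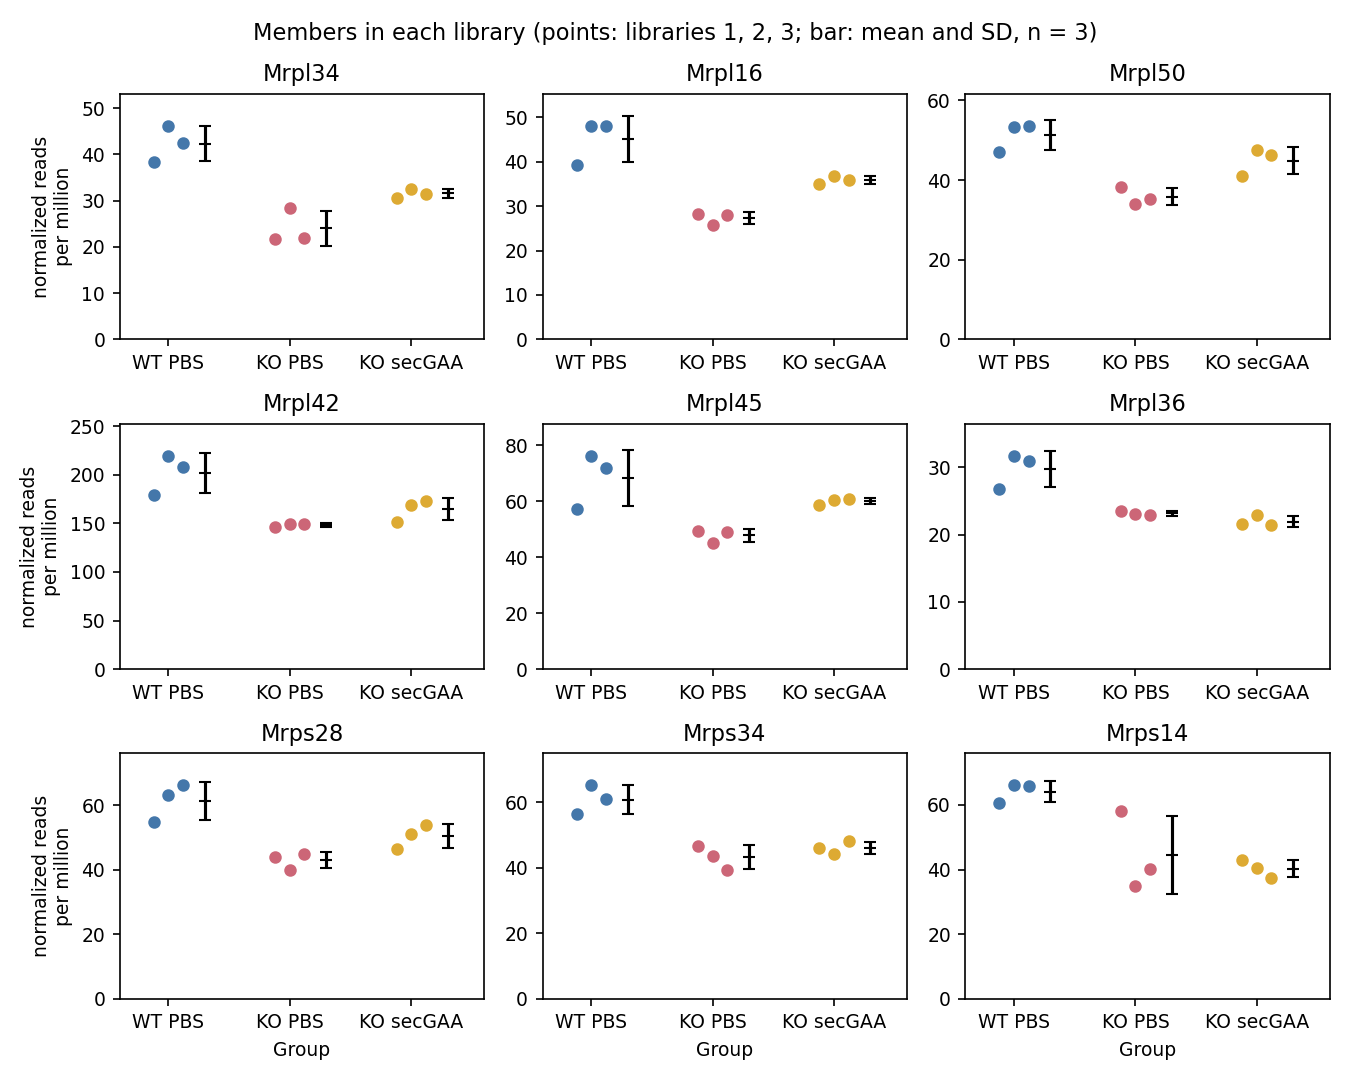
Normalized CPM of 9 genes in each library (points, libraries 1 to 3 from left to right in each group; bars, mean and SD, n = 3). KO PBS lies below WT PBS in all 9, KO secGAA lies between them without overlap in Mrpl34, Mrpl16, Mrpl42 and Mrps28, and in Mrpl36, Mrps34 and Mrps14 it lies with KO PBS.

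By the origin assigned to each gene, 8 of the 47 genes of bacterial families fell in KO PBS (17.0%). Of the 30 mitochondrial additions 7 fell (23.3%), against 11.0% of all genes. The medians were -0.20 and -0.14 (0.11 and 0.18 without scaling factors). By site, the 3 proteins of the L7/L12 stalk that binds translation factors (Mrpl10, Mrpl11 and Mrpl12, named as a group by site) had a median of -0.20 and none passed. A set of 4 proteins of the central protuberance (Mrpl38, Mrpl40, Mrpl46 and Mrpl48), which need not hold all proteins of that site, had a median of -0.15. None of the 4 passed, and of 5 near the exit tunnel (median -0.33) only Mrpl45 did. Sets of 3 to 5 genes are too small to set against the 11.0% of all genes that fell. Mrpl23, also at the tunnel, was at 14.4, 11.5 and 9.14 in WT PBS and 8.06, 6.66 and 11.9 in KO PBS. Its reads are uncertain, since the pseudogene Mrpl23-ps1 held 44.2 to 60.4 in the same libraries. Of the symbols that mislead about place, Mrps18a had a log2 fold change of -0.27, Mrps36 of -0.32 and Mrps30 of 0.14, and none passed (limma adjusted p = 0.209, 0.286 and 0.38). Further genes with large changes that did not pass were Mrpl1 (-0.37, limma adjusted p = 0.0534), Mrpl47 (-0.33, 0.172) and Mrps22 (-0.31, 0.0857).

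At the other end, Mrpl40 (mL40) was at 18.0, 18.1 and 18.2 in WT PBS, 20.3, 22.8 and 20.6 in KO PBS and 16.2, 17.1 and 17.5 in KO secGAA. Its KO PBS libraries lay above both other groups. The log2 fold change was 0.22 in KO PBS against WT PBS (limma adjusted p = 0.107) and -0.32 in KO secGAA against KO PBS (0.0911), and neither passed. Relative to the family mean it was 0.41 higher in KO PBS than in WT PBS.

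The second question was whether the 2 subunits moved apart. For each library, the mean log2 level of the large subunit genes was taken from that of the small subunit genes, a quantity that the scaling of libraries affects only through the pseudocount. It was -0.087, -0.140 and -0.111 in WT PBS, -0.097, -0.127 and -0.122 in KO PBS and -0.123, -0.152 and -0.147 in KO secGAA. The groups overlapped. The means were -0.113 ± 0.027, -0.115 ± 0.016 and -0.141 ± 0.016 (SD, n = 3), so KO PBS differed from WT PBS by -0.0028, KO secGAA from KO PBS by -0.0251 and KO secGAA from WT PBS by -0.0279. The first was smaller than the SD of either group, and the others were larger than the SDs of the groups compared. No test was made of this quantity, and in both comparisons the ranges of the libraries overlapped. With medians in place of means over genes, the differences were larger in size, as given in the closing section. Both differences from WT PBS then turned from negative to positive, so the answer depended on the summary used. The small subunit held 34.0% ± 0.61 of the summed level of the family in WT PBS, 34.3% ± 0.27 in KO PBS and 33.5% ± 0.28 in KO secGAA. In KO PBS against WT PBS the median log2 fold change was -0.10 for the small and -0.20 for the large subunit, while 27.6% of small and 14.3% of large subunit genes fell. The difference between the subunits in these shares was not tested.

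By library, the mean log2 level of the family relative to the WT PBS mean was -0.14, 0.10 and 0.04 in WT PBS, -0.12, -0.20 and -0.23 in KO PBS and -0.20, -0.07 and -0.09 in KO secGAA. WT PBS 1 stood below the other WT PBS libraries and overlapped both KO groups. The summed level of the 78 genes was 3570, 4272 and 4102 in WT PBS, 3637, 3433 and 3321 in KO PBS and 3396, 3740 and 3705 in KO secGAA, with the same overlap. Without WT PBS 1, 21 genes fell in KO PBS in place of 15, 13 of them among the 15, and the median log2 fold change went from -0.19 to -0.23. Without WT PBS 2, WT PBS 3, KO PBS 2 or KO PBS 3 the number was 7 each time, all among the 15. Both subunits had the same order of libraries in WT PBS and KO PBS.

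**Figure D4:**
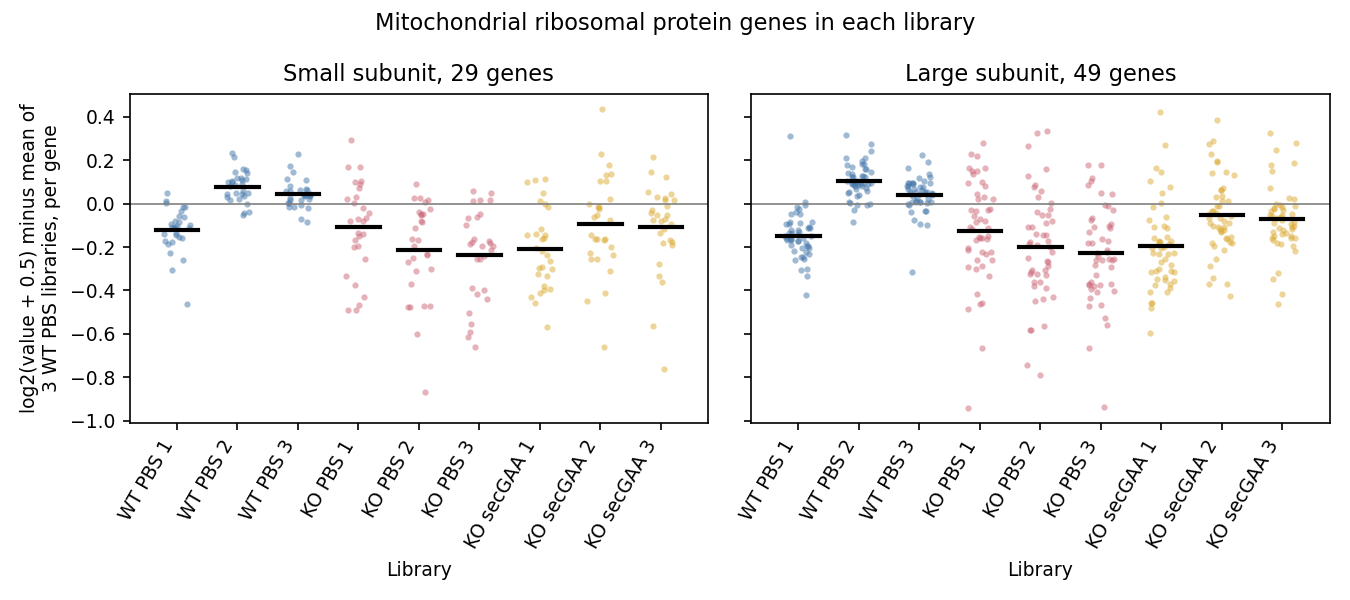
Each point is 1 gene in 1 library, as log2(value + 0.5) minus its mean over the 3 WT PBS libraries, for 29 small and 49 large subunit genes, and black bars are means over genes. WT PBS 1 lies below the other WT PBS libraries and at the height of KO PBS 1 in both panels.

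The direction of the family depends on the scaling factors. With each library set to the same total and no further factor, the median log2 fold change of all genes in KO PBS against WT PBS moved up by 0.30, and 34.1% of all genes rose and 3.96% fell. Of the 78 genes, 16 then rose and 2 fell (Mrpl34 at -0.50 and Mrpl16 at -0.39, limma adjusted p = 0.00983 and 0.0116), and the median of the family turned from -0.19 to 0.12. Relative to the median of all genes the family stood at -0.20 with the deposited scaling and at -0.18 without it. The other 13 genes did not pass without the factors: 12 of them had log2 fold changes from -0.24 (Mrps14) to -0.01 (Mrps7), and Mrps15 had 0.03. The 7 genes that were lower under each of the 18 alternatives other than this one were Mrpl34, Mrpl16, Mrpl42, Mrpl45, Mrpl50, Mrps28 and Mrps34.

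**Figure D5:**
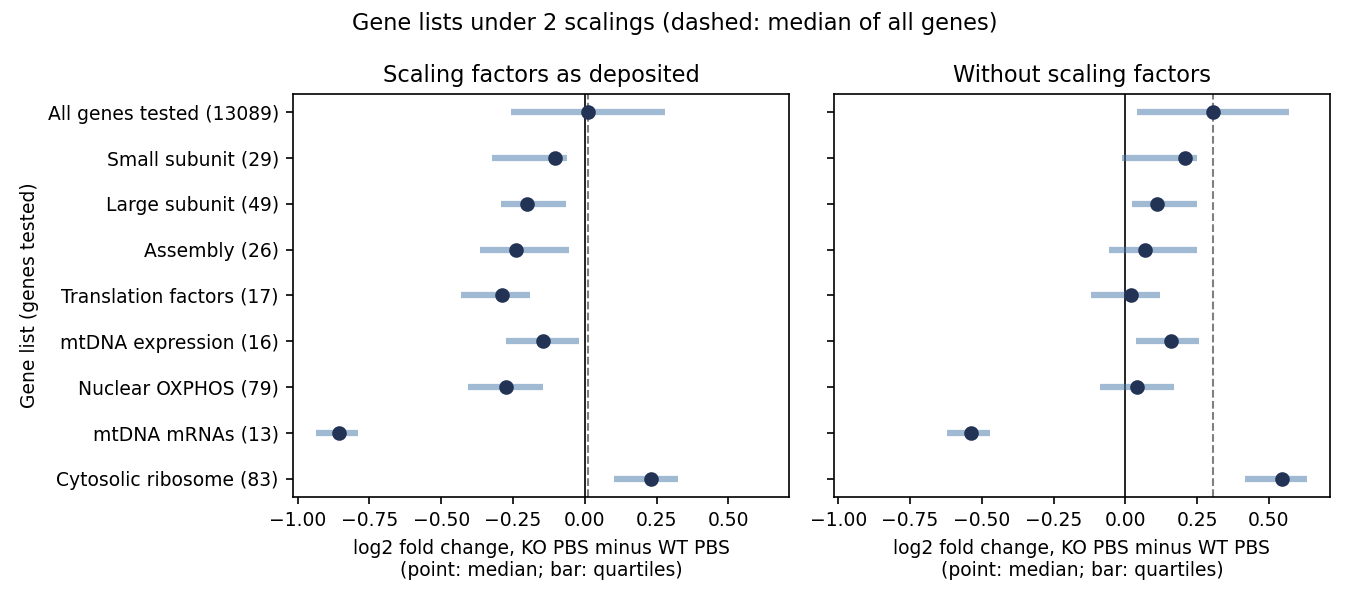
Median (points) and quartiles (bars) of the log2 fold change in KO PBS against WT PBS of gene lists, with the deposited scaling (left) and without scaling factors (right), where dashed lines mark the median of all genes at 0.01 and 0.31. The lists move together with that line, so small and large subunits lie left of it in both panels, and the mRNAs of mitochondrial DNA lie farthest left.

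The second comparison, KO secGAA against KO PBS, asks what the vector changed in the knockout. No gene of the 78 passed (limma, 0 of 78, against 3.67% of all genes, 1.37% higher and 2.31% lower). An unadjusted p under 0.05 was found for 7 of the 78, against 2530 of the 13089 genes tested. edgeR called 0 and DESeq2 called 1, Mrpl16. The median log2 fold change was 0.06, against 0.00 for all genes, and ranged from -0.32 to 0.43. The closest to the threshold was Mrpl16, whose 3 KO secGAA libraries lay above all KO PBS libraries (log2 fold change 0.39, limma adjusted p = 0.064). Mrpl34 (0.40, 0.104), Mrpl50 (0.32, 0.103) and Mrpl45 (0.33, 0.136) had changes of like size, and Mrps6 (0.42, limma adjusted p = 0.137), a bacterial family protein of the small subunit, and Mrps28 (0.23, 0.25) did not pass either. Without WT PBS 1, which enters through the shared estimate of spread, Mrpl16 and Mrpl45 passed.

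The third comparison, KO secGAA against WT PBS, asks what remained different from wild type after treatment. It shares WT PBS libraries with the first and KO secGAA libraries with the second. Of the 78 genes 2 fell, Mrps34 and Mrpl36 as given above, and 0 rose, against 3.72% of all genes (1.89% lower and 1.83% higher). The median was -0.13. The number was 0 without WT PBS 2, WT PBS 3 or any 1 of the KO secGAA libraries, 1 without KO PBS 2 or KO PBS 3, and 4 without WT PBS 1. Without KO PBS 3 the gene was Mrps34. Without KO PBS 2 neither Mrps34 nor Mrpl36 passed, so the gene called was another. Mrpl16 (-0.32, limma adjusted p = 0.101), Mrpl34 (-0.41, 0.0862), Mrpl10 (-0.35, 0.0692), Mrps28 (-0.28, 0.144) and Mrps15 (-0.28, 0.109) did not pass.

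Other proteins of the mitochondrial ribosome carry names outside the rule. Of these, Dap3, Ptcd3, Chchd1 and Aurkaip1 of the small and Gadd45gip1 of the large subunit were in the table. None passed in KO PBS against WT PBS, and their median was -0.22, or 0.09 without scaling factors. Ptcd3 was at 55.2, 77.9 and 70.4 in WT PBS and 53.1, 45.5 and 55.3 in KO PBS (log2 fold change -0.39, limma adjusted p = 0.0554). Gadd45gip1 was at 43.7, 20.2 and 35.4 in WT PBS, 17.5, 15.3 and 30.8 in KO PBS and 45.7, 55.2 and 35.5 in KO secGAA, and the groups WT PBS and KO PBS overlapped.

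Of 26 genes for assembly of the mitochondrial ribosome 5 fell in KO PBS against WT PBS and none rose (19.2% lower, median -0.24), against 11.0% and 10.9% of all genes. Without scaling factors 1 was lower and 2 higher (3.85% and 7.69%, median 0.07), against 3.96% and 34.1% of all genes (median 0.31). Relative to the median of all genes the list stood at -0.25 with the deposited scaling and at -0.24 without it. The 5 that fell with the deposited scaling included Malsu1, which keeps immature large subunits from joining (from 40.9, 42.3 and 44.3 to 29.2, 28.1 and 28.2, log2 fold change -0.57, limma adjusted p = 0.0027). They also included Fastkd2, an RNA-binding protein needed for the large subunit (-0.59, limma adjusted p = 0.0103), Mettl17 (-0.52, 0.0152) and the rRNA methyltransferase Nsun4 (-0.36, 0.0285). The most abundant that did not pass were Dhx30 (-0.18, limma adjusted p = 0.189) and Rcc1l (-0.22, 0.177). In KO secGAA against KO PBS, Mpv17l2, a membrane protein that binds the large subunit, fell from 21.0, 20.5 and 20.4 to 15.1, 13.9 and 16.6 (-0.43, limma adjusted p = 0.0453), a call lost without any 1 of the 9 libraries.

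Of 17 translation factors of mitochondria 5 fell in KO PBS against WT PBS and none rose (29.4% lower, median -0.29), against 11.0% and 10.9% of all genes. Without scaling factors 2 were lower and 1 higher (11.8% and 5.88%, median 0.02), against 3.96% and 34.1% of all genes (median 0.31). The list stood at -0.30 relative to the median of all genes with the deposited scaling and at -0.29 without it. Taco1, an activator of translation of the mt-Co1 mRNA, went from 33.5, 46.9 and 42.4 to 20.5, 16.4 and 23.9, and was at 29.6, 24.1 and 25.9 in KO secGAA. The log2 fold change in KO PBS was -0.9997 (SE 0.16, limma adjusted p = 0.00236). Gfm2, which acts in ribosome recycling, fell by 0.58 (0.00196), Gfm1, an elongation factor, by 0.49 (0.00986), and Pdf, a peptide deformylase, by 0.43 (0.00757), all limma adjusted p. Tufm, the elongation factor with the highest level of the list, had a log2 fold change of -0.18 (limma adjusted p = 0.164), and Lrpprc, which stabilizes mitochondrial mRNAs, one of -0.34 (0.0716). Without scaling factors Taco1, Gfm2 and Malsu1 remained lower in KO PBS (limma adjusted p = 0.0118, 0.0412 and 0.0388), and Fastkd2, Mettl17, Nsun4, Gfm1 and Pdf did not pass.

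Of 16 genes for transcription, replication and RNA processing of mitochondrial DNA 3 fell in KO PBS (18.8%, median -0.15), against 11.0% of all genes. They were the RNA polymerase Polrmt (-0.38, limma adjusted p = 0.0111), the helicase Supv3l1 (-0.41, 0.0352) and the transcription factor Tfb2m (-0.33, 0.0443), none of which passed without scaling factors. In that setting 0 of the 16 were lower and 3 higher (18.8%, median 0.16), against 3.96% and 34.1% of all genes (median 0.31). Relative to the median of all genes the list stood at -0.16 with the deposited scaling and at -0.15 without it. Tfam, which packages mitochondrial DNA, had a log2 fold change of -0.26 (limma adjusted p = 0.166), and Hsd17b10, a part of mitochondrial RNase P, one of 0.15 (0.23). Of 9 regulators of mitochondrial gene expression Myc rose in KO PBS (1.10, limma adjusted p = 0.0208) and no other passed (Esrra -0.33, 0.136). Myc alone was 11.1% of this list, near the 10.9% of all genes that rose. Myc was also higher in KO secGAA against WT PBS (limma adjusted p = 0.0334), a call lost without any 1 of the WT PBS or KO secGAA libraries. Of 9 mitochondrial proteases and chaperones Clpx fell (-0.40, 0.00907, and -0.09 without scaling factors, where it did not pass), and the chaperones Hspa9 (0.12, 0.474) and Hspd1 (-0.19, 0.187) did not pass. Clpx alone was 11.1% of this list, near the 11.0% of all genes that fell. Leaving out 1 library ended the calls in KO PBS against WT PBS for Mettl17 (WT PBS 2 or KO PBS 3), Nsun4 (WT PBS 2, WT PBS 3, KO PBS 1 or KO PBS 2) and Myc (WT PBS 1, WT PBS 2, KO PBS 1 or KO PBS 2). The calls for Supv3l1 and Tfb2m were lost without any 1 of 5 libraries (WT PBS 2, WT PBS 3 and the 3 KO PBS libraries), and that for Tfb2m also without any KO secGAA library.

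The templates of the mitochondrial ribosome are the 13 mRNAs of mitochondrial DNA, of which 12 fell in KO PBS against WT PBS, with a median of -0.86 with the deposited scaling. Without scaling factors 7 of the 13 were lower (median -0.54), and with quantile normalization 3 were (mt-Atp8, mt-Nd3 and mt-Nd4l). mt-Nd6, a subunit of complex I, was at 2796, 2989 and 3289 in WT PBS, 1678, 1878 and 1454 in KO PBS and 2291, 2363 and 2292 in KO secGAA, with no overlap between any of the groups (log2 fold change -0.86, limma adjusted p = 0.00108). Among the others, mt-Nd2 had a log2 fold change of -1.02 (limma adjusted p = 0.0022), mt-Nd4l of -0.80 (0.00143) and mt-Nd5 of -0.79 (0.00162), while mt-Atp6 at -0.94 (0.0849) did not pass. In KO secGAA against KO PBS none of the 13 passed, and their median was 0.40. The libraries were selected for polyadenylated RNA, so the values for these mRNAs depend on their tails. No label says whether counting used strand, so reads from the opposite strand, as at mt-Nd6, cannot be told apart. Of the 79 nuclear genes for subunits of oxidative phosphorylation 21 fell (26.6%) and none rose (median -0.27), against 11.0% and 10.9% of all genes. Without scaling factors 1 was lower and 6 higher (1.27% and 7.59%, median 0.04), against 3.96% and 34.1% of all genes (median 0.31). Relative to the median of all genes the list stood at -0.29 with the deposited scaling and at -0.26 without it. The 83 cytosolic ribosomal protein genes had 14 higher and 2 lower (median 0.23), and 68 higher and 0 lower without scaling factors (median 0.55). The differences between these lists were not tested.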

How the data were processed

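The deposited table holds 1 normalized signal per gene and library. Per the submitters' processing notes the authors used CASAVA, cutadapt, RSEM, limma and edgeR with GRCm38, with no version or use of strand stated there. Whole reads were recovered from the deposited signal for 100% of 118044 values at a relative tolerance of 1e-06. The signal matched CPM after edgeR's TMM scaling. Because the values are no raw counts, limma 3.58.1 (R 4.3.3) on log2(value + 0.5) over all 3 groups was used in place of a count test, for 13089 of 13116 genes with a signal of at least 1 in at least 3 libraries, with Benjamini-Hochberg adjustment over all of them. Fold changes are on that scale. The code was tested on simulated data. Alternatives were edgeR 4.0.16, DESeq2 1.42.0 and voom on recovered reads, other pseudocounts, filters and scalings, 2 groups only, and each library left out. Members were taken by symbol without use of values, though earlier results of these data were known when members and gene lists were chosen. Named in each comparison were up to 8 called members of each subunit by smallest adjusted p and the 3 with the largest change among those not called, the 3 highest and 3 lowest per kilobase, members whose symbol misleads, ribosomal proteins under other names, and in each related list up to 4 called genes and the 2 most abundant not called. Mrpl24, Mrpl40, Mrpl52 and the stalk and central protuberance genes fall outside that rule; they were chosen after their values were seen. The pseudogene names, and genes of other lists, are used only where stated. Motifs and start regions come from RefSeq, GRCm38.p6, and exon overlaps and lengths from GENCODE M21.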

Additional observations from a re-analysis of the deposited data

How the results depend on the processing

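Without scaling factors the median log2 fold change of the family turned to 0.12 in KO PBS against WT PBS, -0.10 in KO secGAA against KO PBS and 0.033 in KO secGAA against WT PBS. In the first comparison 2 genes were lower and 16 higher, against 3.96% and 34.1% of all genes. In the second 1 was lower and 0 higher, against 6.55% and 0.779%. In the third 0 were lower and 1 higher, against 1.06% and 6.63%. The median of all genes was then 0.31, -0.14 and 0.16 in the 3 comparisons. Relative to the median of all genes the family stood at -0.20, 0.06 and -0.13 with the deposited scaling, and at -0.18, 0.05 and -0.12 without it. In KO PBS against WT PBS 59 of the 78 genes then had a positive log2 fold change, against 13 with the deposited scaling, and of the named genes that turned, Mrps15 (0.027) had passed the test with the deposited scaling and Mrps25 (0.24) passed it without. These turns follow from the setting, which raises KO PBS against WT PBS for all genes. Leaving out 1 library gave 7 to 21 genes called in KO PBS against WT PBS, 0 to 2 in KO secGAA against KO PBS and 0 to 4 in KO secGAA against WT PBS. In KO secGAA against KO PBS, quantile normalization and DESeq2 each called 1. In KO secGAA against WT PBS, DESeq2 called 5, and quantile normalization, voom and the 2 groups alone called 1 each. The cause of these differences was not tested. Small minus large subunit as a difference of medians of levels was 0.26 for KO PBS against WT PBS, -0.094 for KO secGAA against KO PBS and 0.17 for KO secGAA against WT PBS, and the cause was not tested. Over all alternatives, 213 of the values that answer a comparison stayed within the limits set for a change, 48 moved beyond them and 3 reversed. The replicate numbers follow accession order and pair no samples.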
